A study of Mus musculus with 8 samples.

Results

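The genes that encode sensors of foreign or misplaced nucleic acid inside the cell were followed in gastric tumor epithelium of Yap1WT and Yap1KO mice. Their first adaptors and the enzymes that act on double-stranded RNA were included. All these genes were chosen by symbol: Dhx58, Ifih1, Ddx58, Mavs, Zbp1, Tlr3, Eif2ak2, Adar, Tmem173 and Mb21d1. These are 10 of the 25140 named genes of the count table, in which Tmem173 is listed as Sting1 and Mb21d1 as Cgas, and all 10 passed the filter on low counts, as did 13508 genes in total. Antral gastric tumors were dissected from 4 Gp130FF; Yap1WT and 4 Gp130FF; Yap1KO mice aged 18 weeks by the labels, EpCAM+ cells were sorted, and each mouse gave 1 RNA library. Both groups carried the homozygous gp130 mutation that drives Stat3-dependent gastric tumors. By the study's methods both also carried Tff1:CreERT2 and Yap1 fl/fl. The labels give the genotypes as gp130FF with Yap1WT and gp130FF with Yap1 flox/flox, and so name floxed Yap1 for Yap1KO only. Yap1KO mice received tamoxifen and Yap1WT mice vehicle by the study's methods, whereas the labels give all 8 mice as sampled 3 days after tamoxifen. If only Yap1KO mice received it, effects of tamoxifen, of active Cre and of Yap1 loss cannot be told apart. The Tff1 promoter drives Cre in foveolar surface cells of the stomach. From Tff1 expression in single cells, the paper also infers deletion in parietal, chief, tumor epithelial, mucous neck, tuft and neuroendocrine cells. Sorted epithelial cells without that promoter's activity keep Yap1, and their share was not measured. Cre removes only exon 3 of the gene.

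RIG-I-like receptors are helicases that bind viral or misplaced RNA in the cytosol and pass the signal to Mavs on the mitochondrial surface, which leads to interferon transcription through IRF factors. DNA in the cytosol is bound instead by cGAS, whose cyclic dinucleotide product activates STING. Several genes of these pathways are interferon-stimulated genes themselves, since interferon signalling acts on an element of their promoters, and epithelial cells of the gut use them in antiviral defence.

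The interferon-stimulated response element, the ISRE, was searched in the RefSeq promoters (GRCm38.p6, 250 bases before to 50 bases from the start base on) as GAAANNGAAA on both strands. A promoter was held for 7 of the 10 genes, all but Dhx58, Zbp1 and Tmem173. Of these, Ifih1, Ddx58 and Eif2ak2 contained the ISRE letters, given in capitals in the sequences that follow, and the promoter of Mavs, which did not, is shown for comparison. Ifih1 is from chr2:62646206-62646505 on the minus strand, Ddx58 from chr4:40239776-40240075 (minus), Eif2ak2 from chr17:78882523-78882822 (minus) and Mavs from chr2:131233813-131234112 (plus).
Ifih1: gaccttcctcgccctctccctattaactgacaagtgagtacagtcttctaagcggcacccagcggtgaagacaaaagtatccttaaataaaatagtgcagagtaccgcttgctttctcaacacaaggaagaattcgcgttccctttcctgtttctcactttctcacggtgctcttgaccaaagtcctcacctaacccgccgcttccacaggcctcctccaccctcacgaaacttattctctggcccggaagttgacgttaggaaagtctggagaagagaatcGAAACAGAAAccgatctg
Ddx58: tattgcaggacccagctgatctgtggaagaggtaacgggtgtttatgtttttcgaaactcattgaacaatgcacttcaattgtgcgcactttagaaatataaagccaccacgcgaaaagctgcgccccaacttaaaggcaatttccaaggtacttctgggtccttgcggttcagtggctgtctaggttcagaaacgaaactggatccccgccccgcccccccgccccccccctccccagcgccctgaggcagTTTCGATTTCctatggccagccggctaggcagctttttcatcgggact
Eif2ak2: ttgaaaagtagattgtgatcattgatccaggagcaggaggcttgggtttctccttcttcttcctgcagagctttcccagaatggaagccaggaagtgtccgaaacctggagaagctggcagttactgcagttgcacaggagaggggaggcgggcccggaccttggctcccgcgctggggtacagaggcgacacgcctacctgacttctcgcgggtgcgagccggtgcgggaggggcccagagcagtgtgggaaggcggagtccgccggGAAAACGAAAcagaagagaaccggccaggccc
Mavs: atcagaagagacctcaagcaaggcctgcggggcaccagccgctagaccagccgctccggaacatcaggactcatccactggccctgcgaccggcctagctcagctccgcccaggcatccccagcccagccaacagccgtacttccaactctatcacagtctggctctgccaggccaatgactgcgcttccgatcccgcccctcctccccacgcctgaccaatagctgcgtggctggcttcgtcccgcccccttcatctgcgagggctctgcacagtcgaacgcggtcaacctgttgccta
The matches began 32, 2 and 18 bases after the start base in Ifih1, Ddx58 and Eif2ak2, and that of Ddx58 reads in the reverse orientation. The letters were also absent from these windows of Tlr3, Mb21d1 and each of 3 Adar promoters. Among all 32851 promoters, 3.44% held the ISRE letters, and by gene they were held by 3.65% of 10674 tested genes with a promoter and by 11.5% of 375 genes called higher in Yap1KO. A second motif, TTCNNNGAA, whose letters read the same in both orientations, was held by the Eif2ak2 promoter and by 1 of the Adar promoters, by 8.33% of the tested genes and by 8.0% of the genes called higher. A match of letters is a description of the sequence and not a measured binding site.

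Libraries held 27607755 to 77483047 counts in Yap1WT and 18229945 to 74278015 in Yap1KO. Levels are given as CPM, counts scaled to the library size with TMM factors. Yap1 levels ranged from 65.0 to 79.0 CPM in the Yap1WT libraries and from 21.5 to 30.1 CPM in the Yap1KO libraries, a log2 fold change of -1.51 (SE 0.13, edgeR adjusted p = 0.000208). Summed CPM of 10 epithelial markers spanned 30388 to 47286 for Yap1WT and 25997 to 35380 for Yap1KO, and 1 of the 10 was called higher and 0 lower (3 higher and 3 lower at an unadjusted p). The sum is carried by Gkn1 and Tff1, with log2 fold changes of -0.62 and -0.53 that did not pass, while the called gene was Epcam itself, the marker of the sort, named here after its values were seen (log2 fold change 0.76, SE 0.10, edgeR adjusted p = 0.00188). The 10 T and NK cell markers summed to 0 to 0.431 CPM in Yap1WT and to 0.487 to 0.864 CPM in Yap1KO. These low sums did not overlap between groups, and none of the 10 genes passed the filter. Some markers of other cell types differed in level as well. Of 10 endothelial markers, 10 had a fold change above 0, 9 were higher at an unadjusted p under 0.05 and 1 was called higher. Their sums were 186 to 672 CPM (Yap1WT) and 622 to 1248 CPM (Yap1KO). Neutrophil and mast cell markers (3 of 3 tested higher at an unadjusted p, 1 called higher) summed to 52.5 to 268 and 317 to 821 CPM. That sum is carried by Mcpt2 (means of 94.9 and 514 CPM) and Mcpt1 (14.8 and 88.5 CPM). The mast cell markers Cpa3 (0.19 and 0.03 CPM) and Tpsb2 (0.15 and 0 CPM) were untested and went the other way. Means of S100a8, S100a9, Csf3r, Cxcr2 and Ly6g, the neutrophil markers, were at most 0.694 CPM. Fibroblast markers summed to 85.8 to 711 and 321 to 1070 CPM. Of 8 tested, 7 had a fold change above 0, with a list median of 1.04 on the log2 scale. With wide errors, as for Col3a1, the most abundant (1.05, SE 0.60), 0 of 8 were past the edgeR threshold, also at an unadjusted p. Macrophage and dendritic cell markers summed to 7.89 to 15.5 and 8.90 to 21.0 CPM. Of 4 tested, only the 1 called higher had a fold change above 0, and the list median was -0.36. Erythroid markers summed to 5.99 to 63.5 and 1.77 to 24.9 CPM, and B and plasma cell markers to at most 2.97 CPM. Yap1KO replicate 4, the shallowest library, stood apart from the other 7 in a principal component analysis. The Y-linked Ddx3y was at 0 to 2 reads in Yap1WT replicates 1 and 4 and Yap1KO replicate 4, so the sexes were not balanced between groups. With a term for Ddx3y in the fit, none of the 10 sensor genes changed its side of the threshold. In bulk RNA, a change in the share of a cell type and a change in RNA per cell cannot be told apart.

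Across the 10 genes, 5 were called higher in Yap1KO at an edgeR adjusted p under 0.05, where 3.52% of all genes tested were called higher. None was called lower, and 0 were lower at an unadjusted p under 0.05 or by DESeq2 or limma-voom, where edgeR called 2.34% of all genes lower. All Yap1KO libraries lay above all Yap1WT libraries for 6 of the 10, against 7.18% of all genes tested. The median log2 fold change was 0.73 with 8 of 10 above 0, beside -0.01 over all genes. On the deposited log2 RPKM values, 6 of the 10 reached the smallest two-sided exact permutation p of 0.0286, the same 5 called genes and Tlr3, all of them higher in Yap1KO, as did 6.64% of the 13819 genes with deposited log2 values in that direction.

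All RIG-I-like receptors were higher in Yap1KO. Dhx58 encodes LGP2, the receptor that lacks signalling domains of its own and regulates the other members. It stood at 3.62, 4.22, 2.85 and 3.16 CPM in Yap1WT replicates 1 to 4 and at 46.8, 22.3, 52.5 and 29.4 CPM in Yap1KO replicates 1 to 4. The groups lay far apart, and the lowest Yap1KO library was still several-fold above the highest Yap1WT library. The log2 fold change was 3.45 (SE 0.29, 95% interval 2.81 to 4.09, edgeR adjusted p = 0.000208), a 10.9-fold difference in level. By the size of its rise Dhx58 ranked 24 and by p it ranked 15 among the 13508 genes. The gene lies on the minus strand at chr11:100694884-100704271 (GRCm38.p6, RefSeq) and overlaps the antisense gene Dhx58os, whose reads the library kit does not separate from its own. Tlr3, Eif2ak2, Adar and Mb21d1 also overlap genes on the opposite strand.

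Ifih1 encodes MDA5, the receptor for long double-stranded RNA (chr2:62595618-62646255, minus strand). Its levels were 38.0, 25.1, 26.7 and 28.7 CPM in Yap1WT and 81.1, 44.5, 90.8 and 74.1 CPM in Yap1KO. The groups did not overlap, although the highest Yap1WT library, replicate 1, came close to the lowest Yap1KO library, replicate 2. The log2 fold change was 1.29 (SE 0.21, 95% interval 0.82 to 1.77, edgeR adjusted p = 0.00637), or 2.45-fold.

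Ddx58 encodes RIG-I, the receptor for short RNA with a triphosphate end (chr4:40203777-40239825, minus strand). It was measured at 14.9, 11.6, 14.7 and 19.4 CPM in Yap1WT and at 60.1, 28.9, 78.7 and 70.02 CPM in Yap1KO. Yap1KO replicate 2 was again the lowest of its group and replicate 3 the highest. The log2 fold change was 1.97 (SE 0.28, 95% interval 1.34 to 2.60, edgeR adjusted p = 0.00296), or 3.93-fold. The calls of Dhx58, Ifih1 and Ddx58 held in each of 18 alternative fits, with adjusted p of at most 0.00149, 0.0263 and 0.0118.

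**Figure D1:**
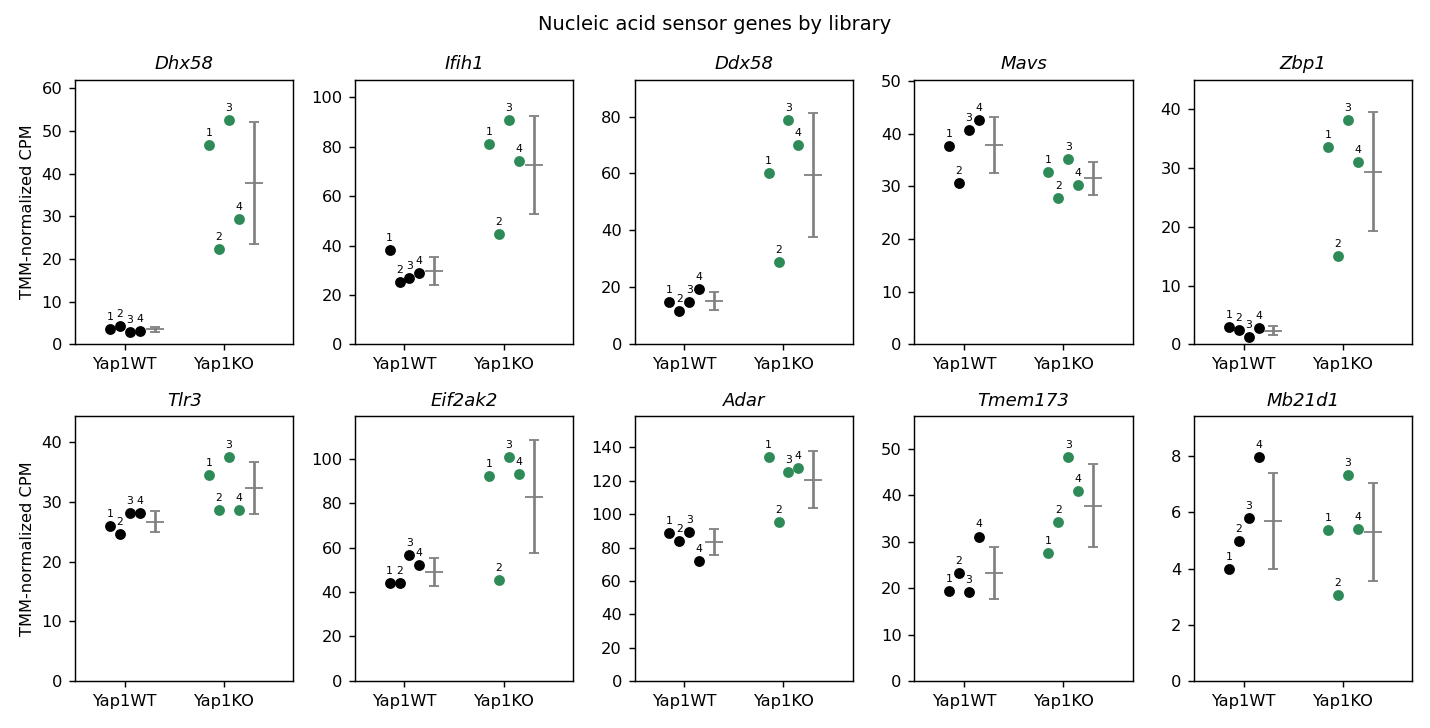
TMM-normalized CPM (vertical axis, from 0, with its own scale per gene) of each of the 10 genes in every library, with Yap1WT in black and Yap1KO in green, replicate numbers beside the points, and the group mean with SD (n = 4) as a grey bar. Dhx58, Ifih1, Ddx58, Zbp1, Tlr3 and Adar show no overlap between groups, and Yap1KO replicate 2 is the lowest green point in each of these but Tlr3.

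The levels of the 3 receptors were also set against that of Mavs, the mitochondrial adaptor through which MDA5 and RIG-I signal and LGP2 does not signal by itself (chr2:131234063-131248025, plus strand). Mavs stood at 37.6, 30.5, 40.7 and 42.6 CPM in Yap1WT and at 32.8, 27.8, 35.1 and 30.3 CPM in Yap1KO. The groups overlapped, with a log2 fold change of -0.26 (SE 0.13, 95% interval -0.55 to 0.03, edgeR adjusted p = 0.299). The deposited log2 RPKM scale was used to compare different genes per length, although how length entered these values is not stated. Which of 2 genes is higher rests on that scaling, while a length fixed per gene cancels from a shift between groups. The difference Dhx58 minus Mavs went from a mean of -2.92 in Yap1WT to 0.59 in Yap1KO, a shift of 3.51 (SE 0.28). For Ddx58 minus Mavs the means were -1.94 and 0.19 (shift 2.13, SE 0.28), and for Ifih1 minus Mavs -1.14 and 0.38 (shift 1.52, SE 0.21). Thus, by these values, each receptor's transcript was below that of the adaptor in the mean of Yap1WT and above it in the mean of Yap1KO. Each shift gave p = 0.0286 in a two-sided exact permutation test over the 8 libraries, the smallest that 4 against 4 allows, or 0.0333 after Benjamini-Hochberg adjustment over 7 such pairs. For Dhx58 this outcome was fixed by the receptor alone. Its log2 RPKM was at most 0.80 in Yap1WT and at least 3.20 in Yap1KO, a gap wider than the whole range of Mavs (3.12 to 3.72).

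The receptors did not rise to the same extent. Their summed RPKM, which like the shares rests on the unstated length scaling, was 11.5, 8.50, 9.47 and 10.7 in Yap1WT and 45.9, 23.2, 55.1 and 39.3 in Yap1KO. Within this sum Dhx58 took 13.3, 20.5, 15.9 and 13.2% in Yap1WT and 42.1, 39.4, 39.9 and 31.0% in Yap1KO, so that its mean share was 15.7% ± 3.40 (SD, n = 4) against 38.1% ± 4.86. Ifih1, the main receptor transcript of every Yap1WT library at a mean share of 53.5% ± 4.97, held 32.9% ± 2.13 in Yap1KO. The Ddx58 share of 30.8% ± 5.39 in Yap1WT and 29.0% ± 4.66 in Yap1KO overlapped between groups. As differences of log2 RPKM, Dhx58 gained 1.99 (SE 0.21) on Ifih1 and 1.38 (SE 0.31) on Ddx58, both at an exact permutation p of 0.0286, adjusted 0.0333. Against Ifih1 that p was fixed beforehand. The gap of Dhx58 between groups (0.80 to 3.20) is wider than the whole range of Ifih1 (2.16 to 4.08). The difference Ifih1 minus Ddx58 went from 0.81 to 0.19, a shift of -0.61 (SE 0.22) that overlapped between groups and did not pass (exact permutation p = 0.0571, adjusted 0.0571).

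**Figure D2:**
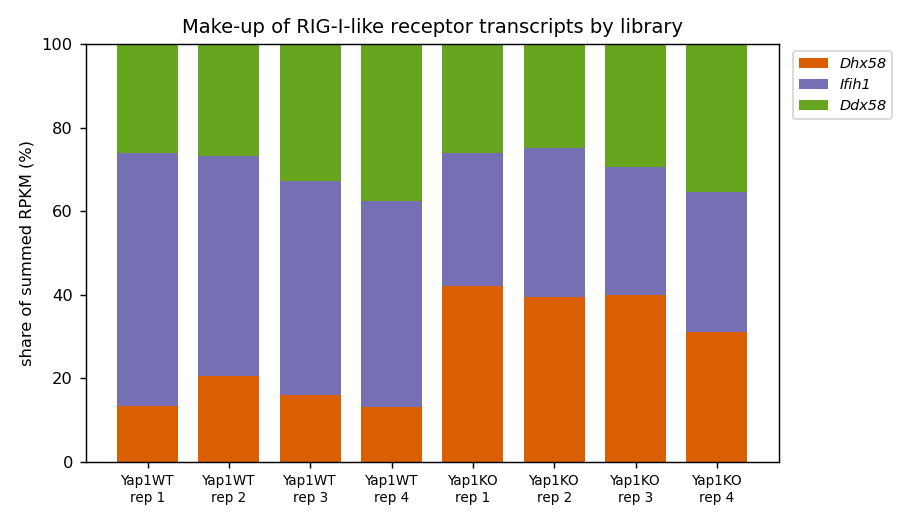
Share (%) that Dhx58, Ifih1 and Ddx58 each take of their summed RPKM, 1 stacked bar per library. The Dhx58 share is 13.2 to 20.5% in Yap1WT and 31.0 to 42.1% in Yap1KO, while the Ddx58 share overlaps between groups.

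Zbp1 encodes a sensor of left-handed Z-form nucleic acid that can start necroptosis through RIPK3 (chr2:173206612-173218959, minus strand). It was the lowest of the 10 genes per length in Yap1WT, and its levels were 2.86, 2.41, 1.22 and 2.76 CPM there against 33.6, 14.97, 38.2 and 31.0 CPM in Yap1KO. The Yap1WT values rest on 76 to 219 reads a library, and the groups were widely separated. The log2 fold change was 3.68 (SE 0.36, 95% interval 2.89 to 4.47, edgeR adjusted p = 0.000363), or 12.8-fold, the largest among the 10 genes. Tlr3, the receptor for double-stranded RNA in endosomes, which signals without Mavs (chr8:45395665-45411075, minus strand), stood at 26.0, 24.6, 28.1 and 28.2 CPM in Yap1WT and at 34.5, 28.7, 37.6 and 28.6 CPM in Yap1KO. The groups came close without overlapping, since Yap1KO replicates 2 and 4 lay just above the Yap1WT range. Its log2 fold change of 0.28 (SE 0.12, 95% interval 0.00 to 0.55) did not pass (edgeR adjusted p = 0.239).

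Eif2ak2 and Adar encode enzymes that meet at double-stranded RNA: PKR, a kinase that shuts down translation when it binds such RNA, and ADAR1, which edits adenosine in it and so keeps self RNA from being sensed. Eif2ak2 (chr17:78850504-78882572, minus strand) was at 44.0, 43.9, 56.5 and 52.2 CPM in Yap1WT and at 92.2, 45.5, 100.8 and 93.2 CPM in Yap1KO. Yap1KO replicates 1, 3 and 4 lay above every Yap1WT library and replicate 2 lay within the Yap1WT range. The log2 fold change was 0.76 (SE 0.22, 95% interval 0.27 to 1.24, edgeR adjusted p = 0.0801). Without Yap1KO replicate 2 it was 0.97 with an adjusted p of 0.00120, and DESeq2 with all libraries gave an adjusted p of 0.0119.

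Adar (chr3:89714469-89753455, plus strand) was at 88.5, 84.0, 89.3 and 72.2 CPM in Yap1WT and at 134.4, 95.5, 125.5 and 127.5 CPM in Yap1KO. Every Yap1KO library was above every Yap1WT library, and the log2 fold change was 0.53 (SE 0.12, 95% interval 0.26 to 0.81, edgeR adjusted p = 0.0341), or 1.45-fold. This call was lost without any 1 of Yap1WT replicates 1, 2, 3 and 4 or Yap1KO replicates 1, 3 and 4, with adjusted p of 0.0622 to 0.0932. Chrnb2, which overlaps Adar on the opposite strand, held 23 to 169 counts a library against at least 1989 for Adar in Yap1WT.

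Neither gene of the DNA-sensing pair passed the threshold. Mb21d1 encodes cGAS (chr9:78430518-78443237, minus strand) and was measured at 3.97, 4.98, 5.79 and 7.98 CPM in Yap1WT and at 5.36, 3.07, 7.34 and 5.42 CPM in Yap1KO. The groups overlapped fully, with a log2 fold change of -0.09 (SE 0.32, 95% interval -0.80 to 0.61, edgeR adjusted p = 0.910), an interval that still holds moderate changes in either direction. Tmem173 encodes STING, the receptor of the cGAS product on the endoplasmic reticulum (chr18:35733678-35740554, minus strand). It stood at 19.3, 23.2, 19.1 and 31.1 CPM in Yap1WT and at 27.6, 34.3, 48.3 and 40.9 CPM in Yap1KO, and only Yap1WT replicate 4 overlapped the Yap1KO range. Its log2 fold change of 0.71 (SE 0.21, 95% interval 0.25 to 1.17) did not pass (edgeR adjusted p = 0.0803). It passed without Yap1WT replicate 4 (log2 fold change 0.88, adjusted p = 0.0319), with DESeq2 (0.0186) and with limma-voom (0.0461). That replicate had the highest endothelial marker sum (672 CPM, against 186 to 314) and fibroblast marker sum (711 CPM, against 85.8 to 363) of Yap1WT. Its sums of T and NK cell, B and plasma cell and erythroid markers were the lowest of that group. The part of these cell types in the Tmem173 result was not tested. On the log2 RPKM scale the sensor lay further below its receptor in Yap1KO: Mb21d1 minus Tmem173 was -2.77 in Yap1WT and -3.78 in Yap1KO. This shift of -1.01 (SE 0.32) had an exact permutation p of 0.0286, adjusted 0.0333. On that scale Tmem173 differed by 0.71 and Mb21d1 by -0.30. The shift was -0.78 on log2 of TMM-normalized CPM plus 1. It ran from -1.20 to -0.75 when 1 library was left out, the latter without Yap1KO replicate 2, where Mb21d1 had 96 reads.

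**Figure D3:**
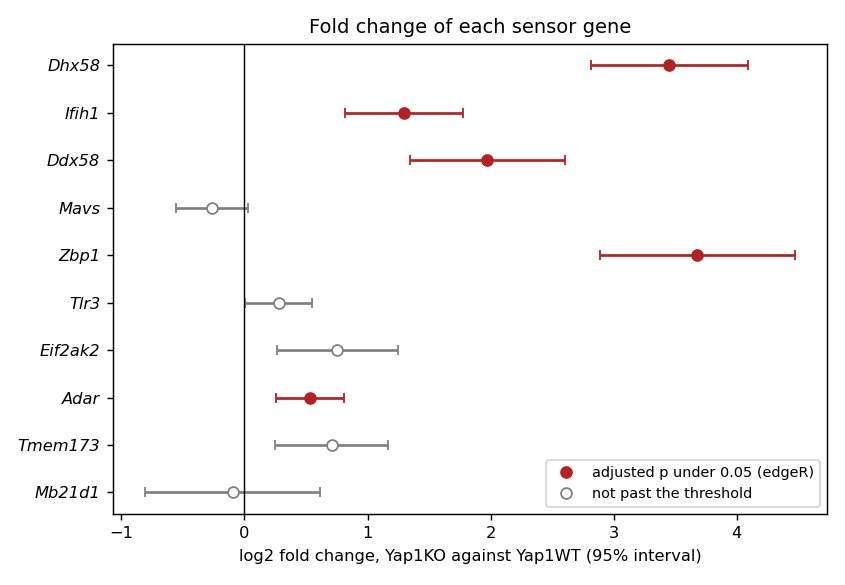
Log2 fold change of Yap1KO against Yap1WT with its 95% interval for each of the 10 genes, from edgeR on 4 libraries per group. Filled red points mark Dhx58, Ifih1, Ddx58, Zbp1 and Adar, whose adjusted p was under 0.05, and the intervals of Mavs and Mb21d1 span 0.

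Among the 5 called genes, Yap1KO replicate 2 was the lowest Yap1KO library in 5 and replicate 3 the highest in 4. The endothelial, the fibroblast, and the neutrophil and mast cell marker sums of that replicate 2 were 1030, 476 and 764 CPM. These lay within the range of the other Yap1KO libraries. The same library had the highest sums of all 8 for macrophage and dendritic cell markers (21.0 CPM, against 8.90 to 12.5 CPM in the other Yap1KO libraries), for B and plasma cell markers (2.97 CPM) and for T and NK cell markers (0.864 CPM). The part of these cell types in the results was not tested. Without Yap1KO replicate 4, the library that stood apart, the log2 fold changes were 3.55 for Dhx58, 1.29 for Ifih1, 1.89 for Ddx58, 3.66 for Zbp1 and 0.51 for Adar, the last of which no longer passed (edgeR adjusted p = 0.0878).

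The count columns of the 8 mice are headed by numbers, which were split here into a lower and a higher series. Each series held 2 mice of each group (replicates 1 and 2, and replicates 3 and 4). The labels do not say what the numbers mean and name no batch. The log2 ratio of group means in the lower and the higher series was 3.14 and 3.77 for Dhx58, 0.99 and 1.58 for Ifih1, 1.75 and 2.12 for Ddx58, 3.20 and 4.12 for Zbp1 and 0.42 and 0.65 for Adar. All 5 called genes were higher in Yap1KO within each series, which was fixed beforehand, since none of the 5 overlapped between groups. For the others the ratios were 0.65 and 0.84 for Eif2ak2, 0.54 and 0.83 for Tmem173, 0.32 and 0.23 for Tlr3, -0.17 and -0.35 for Mavs and -0.09 and -0.11 for Mb21d1. With a term for the series in the fit, Eif2ak2 and Tmem173 passed as well, at edgeR adjusted p of 0.0400 and 0.0404. The differences in the lower and the higher series were not tested against each other.

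Compared per length on the log2 RPKM scale, the mean level in Yap1WT ran from Adar (3.78) through Mavs (3.55), Eif2ak2 (3.49), Tmem173 (3.31), Tlr3 (2.62), Ifih1 (2.41), Ddx58 (1.60), Dhx58 (0.62) and Mb21d1 (0.54) to Zbp1 (0.16). In that order only the neighbours Tmem173 and Tlr3, Ifih1 and Ddx58, and Ddx58 and Dhx58 had library ranges that did not overlap. In Yap1KO the order was Adar (4.32), Eif2ak2 (4.20), Tmem173 (4.02), Dhx58 (3.88), Ifih1 (3.68), Zbp1 (3.67), Ddx58 (3.49), Mavs (3.29), Tlr3 (2.89) and Mb21d1 (0.24). There only Tlr3 was set apart from both of its neighbours, so that the first 8 genes formed a run without gaps. Dhx58 and Zbp1, near the bottom in Yap1WT beside Mb21d1, joined the middle of the order in Yap1KO, whereas Mb21d1 stayed low. Both orders rest on the length scaling of the deposited values, which is not stated.

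**Figure D4:**
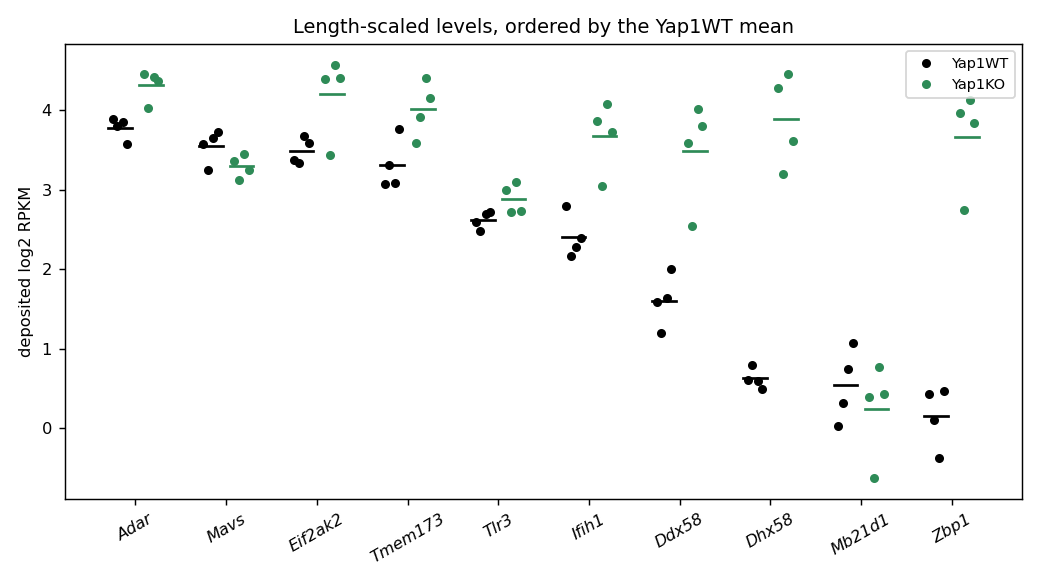
Deposited log2 RPKM of the 10 genes (vertical axis), 4 Yap1WT libraries in black and 4 Yap1KO libraries in green, with the group mean as a line and genes ordered by the Yap1WT mean. The Yap1WT means span 3.78 to 0.16, and among the Yap1KO means only those of Tlr3 and Mb21d1 lie below Mavs, although Ddx58, Zbp1 and Ifih1 also do in Yap1KO replicate 2.

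Genes that surround the sensors were taken from 10 lists of 194 genes, of which 157 passed the filter. Of these 157, 14 were called higher, beside 3.52% of all genes tested, and 0 lower, beside 2.34% (7 lower at an unadjusted p under 0.05, and 1 by DESeq2 and by limma-voom). DESeq2 called 20 of them higher and limma-voom 14. The list counts that follow are read beside the same 3.52%, and the median over the 157 genes was 0.02 on the log2 scale. The number called higher fell to 8 without Yap1WT replicate 3, Yap1KO replicate 1 or Yap1KO replicate 3 and to 9 without Yap1WT replicate 2 or Yap1KO replicate 4. Among 26 regulators of the RIG-I-like receptors, 4 were called higher and 0 lower (1 at an unadjusted p, 0 by DESeq2 and by limma-voom), with a median of 0.16. They were Ddx60, a helicase put forward as a cofactor of RIG-I (log2 fold change 3.11, SE 0.36, edgeR adjusted p = 0.000931), Nlrc5, known for the control of MHC class I genes and as a regulator of receptor signalling (2.73, SE 0.38, 0.00253), and the ubiquitin ligases Rnf135 (0.76, SE 0.17, 0.0259) and Trim25 (0.59, SE 0.13, 0.0299), which act on RIG-I. Trim25 was already abundant in Yap1WT, at 137 ± 4.79 CPM (SD, n = 4), and was at 206 ± 37.1 CPM in Yap1KO.

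Transcription factors of the response held most of the remaining calls, 6 of 13 tested, with a median of 0.30. Irf7, the factor that amplifies interferon transcription, went from 11.5 ± 4.23 to 194 ± 67.5 CPM (log2 fold change 4.07, SE 0.35, edgeR adjusted p = 0.000209). Stat2 (1.71, SE 0.22, 0.00157) and Irf9 (1.46, SE 0.16, 0.000639), which act downstream of the type I interferon receptor, were also called higher, as were Irf8 (0.79) and Relb (0.76). Irf3, the factor that receptor signalling activates by phosphorylation, had a log2 fold change of -0.15 (SE 0.13, adjusted p = 0.581). The 24 adaptors and kinases that connect Mavs, STING and TLR3 to these factors gave 0 calls in either direction by edgeR, with 1 higher and 1 lower at an unadjusted p, 1 higher by DESeq2 and 0 by limma-voom. The most abundant of them, Tab2 and Azi2, had log2 fold changes of 0.18 (SE 0.10) and 0.06 (SE 0.10), and the median of the list was 0.01. Irf3, Irf8 and Relb were added to those named by the rule after their values were seen.

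Of 19 nucleases and clearance genes tested, Trex1, which degrades cytosolic DNA (log2 fold change 1.15, SE 0.20, edgeR adjusted p = 0.00715), and Samhd1, which hydrolyses nucleotides (0.71, SE 0.18, 0.0479), were called higher, and the list median was -0.06. Of 20 cofactors of cGAS and STING, 1 was called higher, Trim30a (2.22, SE 0.33, 0.00344), reported to restrain STING, a count close to the share over all genes, with a list median of -0.03. Of 6 endosomal receptor genes tested, Unc93b1, the chaperone that brings nucleic acid receptors such as Tlr3 to the endosome, was called higher (0.71, SE 0.17, 0.0375).

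No call was made by edgeR in 3 further lists. Among 5 partners of Zbp1 in necroptosis, Casp6 and Casp8 had log2 fold changes of 0.14 (SE 0.09) and 0.27 (SE 0.10), with 1 gene of the list higher at an unadjusted p and 0 called by DESeq2 or limma-voom. Of 27 other RNA and DNA binding proteins, 4 were higher and 3 lower at an unadjusted p. DESeq2 called 2 of them higher and 1 lower and limma-voom 1 lower, the helicase Ddx3x (-0.43, SE 0.13, edgeR adjusted p = 0.0969). Hnrnpa2b1, the most abundant, had -0.27 (SE 0.14). Of 17 genes related to PKR and ADAR, 3 were higher and 2 lower at an unadjusted p, and DESeq2 called 1 higher and limma-voom 0. Dnajc3, an inhibitor of PKR, and Ppp1r15b, which directs the phosphatase that reverses PKR's mark, had log2 fold changes of 0.14 (SE 0.11) and -0.11 (SE 0.13).

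**Figure D5:**
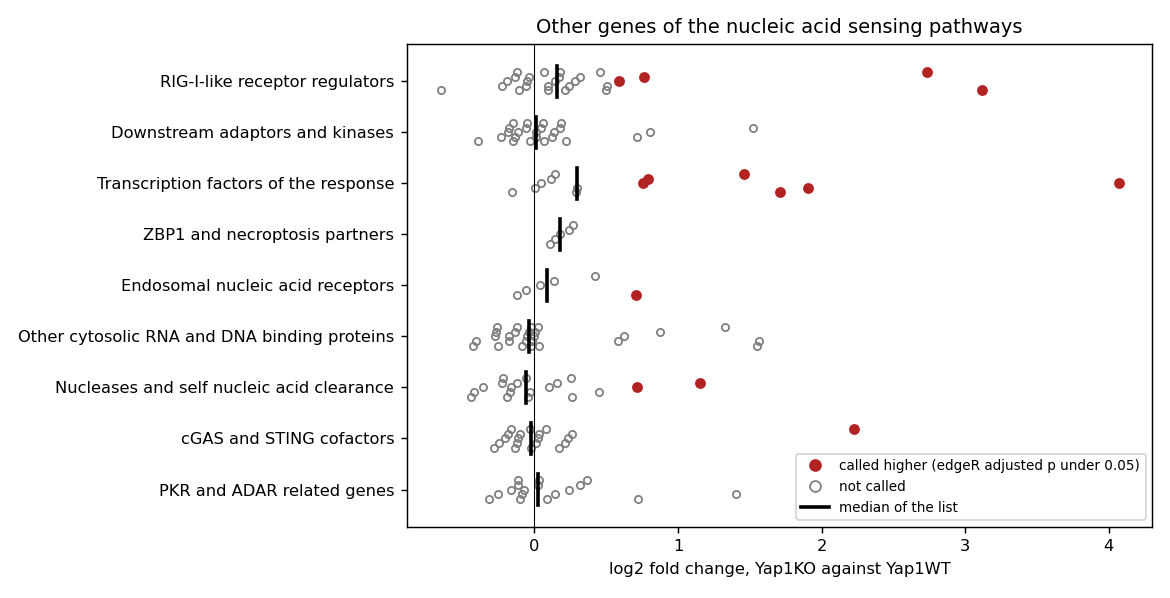
Log2 fold change of Yap1KO against Yap1WT for every tested gene of 9 lists around the sensors, 1 point per gene, red where called higher by edgeR, with the list median as a black bar. Called genes number 6 of 13 among transcription factors and 4 of 26 among receptor regulators, and the medians lie between -0.06 and 0.30.

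Genes of interferon ligands were near or below detection. None of 20 ligand genes passed the filter, and 13 had no read in any library, where 3 counts, the limit that a count of 0 allows, correspond to 0.0392 to 0.166 CPM depending on depth. Ifnb1 had 5 reads in Yap1KO replicate 2 and no read elsewhere. Ifnl2 and Ifnl3, near-identical copies whose reads the counting could split, had 13 and 18 reads in Yap1KO replicate 3 alone, and Ifng had 6 reads in Yap1WT replicate 1 alone. The epithelial interferon Ifne was the most abundant, with 75, 35, 29 and 8 reads in Yap1WT and 10, 9, 2 and 0 reads in Yap1KO. None of the ligands was tested, Ifne included.

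The genes whose levels ran closest to those of the RIG-I-like receptors were found by the root mean square difference of mean-centred log2 CPM over the 8 libraries, among 10859 genes. Nearest to Dhx58 were Ddx60 (0.298), the stress cytokine Gdf15 (0.313) and Xaf1 (0.314), a gene linked to apoptosis. Nearest to Ifih1 were Znfx1 (0.129), itself an RNA-binding helicase, Faim2 (0.139) and Parp12 (0.149). Among the nearest to Ddx58 were Parp14 (0.110) and the GTPase gene Irgm1 (0.211). The distances are a description over the same 8 libraries, group difference included.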

How the data were processed

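RNA of EpCAM+ tumor cells from 4 Yap1WT and 4 Yap1KO mice was sequenced after TruSeq RNA v2 preparation, which does not mark strand. The authors aligned reads to GRCm38/mm10 with Subread and deposited raw counts per gene from featureCounts, whole numbers without normalization. The deposited log2 RPKM values, 1 set per library, were made by the authors with limma's voom and quantile normalization; their scaling to gene length is not stated, and their header reads FPKM. Of the count columns, 6 match no sample and were not used. Of 27179 entries, 1277 without a name (0.552 to 0.789% of a library's counts) and 762 pseudogenes were left out, while 73 pseudogenes held in the log2 values were kept.

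Here, genes above 0.5 CPM in at least 6 libraries were compared with edgeR 4.0.16 (R 4.3.3; TMM, quasi-likelihood test, p adjusted by Benjamini-Hochberg across 13508 genes), Yap1KO against Yap1WT. Standard errors were taken from the fold change and F, and 95% intervals from the t quantile of the fitted degrees of freedom. Exact permutation tests used log2 RPKM and all 70 splits, two-sided. The code was tested on simulated data. The alternatives were RLE and upper quartile factors, DESeq2 1.42.0, limma-voom 3.58.1, limma-trend on the deposited log2 values and other filters. Further alternatives were blocks for replicate number and for the column number series, a term for Ddx3y and leaving out each library. Plots used Python 3.11.15 and matplotlib 3.10.9.

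The sensor genes, the pathway and marker lists and the tests were chosen with earlier results of these data known. Markers are given as list sums, with some marker genes named after their values were seen. Text names the 10 sensor genes and Yap1. Per pathway list it names up to 4 called genes per direction by p, or else the 2 most abundant. For each RIG-I-like receptor it names the 3 nearest genes (5 CPM or more in the group with the higher mean). The result of 1 gene that this rule names is left out here. Positions and promoters are from RefSeq GRCm38.p6 and overlapping genes from GENCODE vM21. Depth of 18229945 to 77483047 counts limits low genes such as the interferons, and intervals for such limits cover counting error only.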

Additional observations from a re-analysis of the deposited data

Results flagged for a closer look

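Eif2ak2 in Yap1KO replicate 2 stood far below the other Yap1KO libraries, at 45.5 CPM against 92.2, 100.8 and 93.2 CPM. The gap to the nearest of the others was 0.844 of the group's range, above Dixon's critical value for 4 samples. With 34 groups examined, of the 10 genes and 7 pair differences in both genotypes, chance alone flags about 1 in 20. The cause was not tested.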

How the results depend on the processing

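Over 18 alternatives and 10 genes, 162 of 180 fold changes kept their direction and side of the threshold, 7 lost the call, 9 gained it and 2 changed sign. Dhx58, Ifih1, Ddx58 and Zbp1 kept theirs throughout, with log2 fold changes of 3.25 to 3.64, 1.17 to 1.48, 1.81 to 2.21 and 3.46 to 3.91, and Mavs and Tlr3 passed in no alternative. Mb21d1, near 0 throughout, ran from -0.29 to 0.11 when 1 library was left out and was above 0 without Yap1WT replicate 4 and without Yap1KO replicate 2. With the replicate block 7 sensor genes were called higher, Eif2ak2 (adjusted p = 0.0394) and Tmem173 (0.0426) joining the 5. Same-numbered libraries had correlations of deviations of 0.0304, 0.348, 0.0514 and 0.146, and 3 of 8 correlated best with their own number. With so few libraries, these values do not settle whether the numbers pair the mice.

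Of the pathway genes, 14 were called higher in the reported fit and 8 to 16 when 1 library was left out (9 without Yap1WT replicate 2, 8 without Yap1WT replicate 3, 8 without Yap1KO replicate 1, 8 without Yap1KO replicate 3 and 9 without Yap1KO replicate 4). For genes called lower the range was 0 to 1, the 1 being Tspan6 without Yap1KO replicate 2. DESeq2, limma-voom, the replicate block and the column number series block each called 1 lower, Ddx3x. Genome-wide, 476 genes were called higher and 316 lower, against 858 and 587 with DESeq2, 755 and 551 with the replicate block, 246 and 158 without Yap1WT replicate 3, 290 and 208 without Yap1KO replicate 1 and 272 and 193 without Yap1KO replicate 4. The cause of these differences was not tested.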
